A study of Mus musculus with 10 samples.

Results

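The interferon-stimulated and antigen presentation genes described here are 46 genes taken by symbol from the table of all genes: sensors and transcription factors of the interferon response, its antiviral effectors and inducible GTPases, the immunoproteasome, and major histocompatibility complex (MHC) class I genes with their peptide-loading machinery. Each of the 46 symbols has a row among the 24640 of the table, and 45 passed a filter on low counts and were tested with 15212 genes in all. Trim30a, a ubiquitin ligase of the response, had 1 to 14 counts per library and was not tested. The source cells were C57BL/6 brown adipocytes, which oxidise lipid to produce heat. Their total RNA, extracted with TRIzol, was sequenced in 10 libraries, 2 for each of 5 groups. These were DMSO, the solvent control, for 1 day, BML-260 for 1 day, ISO, listed at 1 day and not spelled out in the labels, DMSO for 3 days and BML-260 for 3 days. BML-260 is known as an inhibitor of Dusp22, a dual-specificity phosphatase. The labels give neither doses nor the source of each library (separate cultures or animals), so each p-value reflects the scatter of these particular libraries, and that scatter may be technical. Library totals ran from 16955918 to 21185675 counts.

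Interferons are secreted proteins that bind cell-surface receptors and, through Janus kinases and STAT proteins, switch on a large set of genes in almost every cell type. Type I interferons act mainly through a complex that holds Stat2 and Irf9 and binds the interferon-stimulated response element, and interferon gamma acts mainly on the gamma-activated sequence. The products sense and restrict viruses and intracellular microbes, and they raise the cutting of proteins into peptides, the transport of these into the endoplasmic reticulum and their display on MHC class I. Adipocytes express these genes without infection, and in fat tissue the pathway is known for its crosstalk with inflammation and thermogenic gene expression.

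The libraries carried the adipocyte genes Fabp4, Adipoq, Plin1 and Cidec at high levels, and Ucp1, the uncoupling protein of brown fat, at 5.58 CPM with DMSO and 13.9 CPM with BML-260 at 1 day (means of 2 libraries). Dio2, another gene of brown fat, had at most 2 counts per library. Of the 14 tested adipocyte markers 5 rose and 4 fell with BML-260 at 1 day and 5 rose and 6 fell at 3 days. Of all genes tested, 9.32% rose and 8.62% fell at 1 day, and 17.3% and 18.3% at 3 days. Adipoq and Prdm16 fell at both times, Prdm16 by 0.39 and 0.75 on the log2 scale. CPM is the count of a gene scaled to a common library size, after TMM normalisation. Of 21 macrophage and leukocyte marker symbols (Adgre1 also under its older symbol Emr1) 12 have no row in the table, the defining Ptprc, Adgre1 and C1qa among them. The rest summed to 6.76 to 10.5 CPM per library. Their group means were 6.82 CPM with DMSO, 7.8 with BML-260 and 9.97 with ISO at 1 day. At 3 days they were 6.785 with DMSO and 8.85 with BML-260. Of the 2 tested, 1 rose and none fell with BML-260 at 3 days, and the same counts were found with ISO. Endothelial markers summed to 0.897 to 2.09 CPM. Preadipocyte and fibroblast markers moved with the groups: 10 of 11 symbols are in the table, and they summed to 1427 and 1589 CPM with DMSO at 1 day, 1064 and 1003 with BML-260, 3551 and 3163 with ISO, 2804 and 3082 with DMSO at 3 days and 2460 and 2416 with BML-260 at 3 days. None of their 9 tested members was higher with BML-260, while 5 were lower at 1 day and 7 at 3 days, against 8.62% and 18.3% of all genes. With ISO, against 21.4% higher and 20.3% lower of all genes, 7 were higher and none lower. Their part in the results below was not tested, and fewer cells of a type and less RNA per cell cannot be told apart in such bulk samples.

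Per kilobase of exon the genes spanned more than 3 orders of magnitude, with the class I light chain B2m on top. In DMSO at 1 day B2m stood at 363.9 ± 11.1 CPM per kilobase (mean ± SD, n = 2), followed by Ifi27 at 130.9 ± 7.47, the class I heavy chain H2-K1 at 111.6 ± 4.74, Lgals3bp at 109.4 ± 4.27, Ifitm3 at 70.77 ± 2.95 and Tapbp at 64.65 ± 2.48. H2-K1 and Lgals3bp did not differ beyond their spread in that group, while Ifitm3 lay above Tapbp by more than either SD. At the low end were Usp18 at 1.389 ± 0.459, Rsad2 at 0.6728 ± 0.0931, Ifi44 at 0.3787 ± 0.0152 and Cmpk2 at 0.2613 ± 0.0136 CPM per kilobase. The genes of the lower end therefore rest on few reads, Cmpk2 on 7 to 26 counts per library.

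After 3 days of BML-260 the genes were lower almost throughout. With BML-260 against DMSO at 3 days, 33 of the 45 tested genes (73.3%) fell and none rose at an adjusted p under 0.05 (edgeR's quasi-likelihood test with Benjamini-Hochberg adjustment over all genes, the rule by which a gene is said below to have risen, fallen or been called). Of all genes tested, 18.3% were called lower and 17.3% called higher in that comparison. The median log2 fold change of the 45 was -0.36, against -0.02 over all genes tested, with a range from -1.70 for Usp18 to 0.43 for Rsad2. Negative values were found in 88.9% of the 45, against 52.3% of all genes tested. In 36 genes both BML-260 libraries lay below both DMSO libraries, and in 3 both lay above. The share of all genes so separated was not taken, so these 2 counts have no background beside them. By role, 6 of 8 sensors and transcription factors fell, and 5 of 5 genes of the ISG15 system and the PARP/DTX3L group. So did 11 of 16 antiviral effectors, 6 of 6 GTPases and 2 of 3 immunoproteasome subunits. Of the 7 genes of the class I group (H2-K1, H2-D1, B2m, Tap1, Tap2, Tapbp and the regulator Nlrc5) 3 fell, H2-K1 and H2-D1 not among them. The second DMSO library at 3 days lay above the first in 40 of the 45 genes, and without it 18 fell and 1 rose, against 10.9% of all genes called lower; the median was then -0.26. Leaving out any other single library gave 24 to 28 calls. With upper-quartile scaling 36 fell and none rose, and the split over all genes went from 2625 higher and 2782 lower to 2077 and 3313. DESeq2 called 24 lower and none higher, against 11.2% and 14.5% of all genes. With the size factors of DESeq2 within edgeR 31 fell and 1 rose, against 16.6% and 19.4% of all genes. The calls kept in each of the 10 alternatives tried were 16, those of Ddx58, Ifih1, Irf7, Irf9, Usp18, Dtx3l, Ifit3, Ifitm3, Xaf1, Gbp2, Gbp3, Gbp7, Igtp, Irgm2, Psmb9 and Nlrc5.

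**Figure D1:**
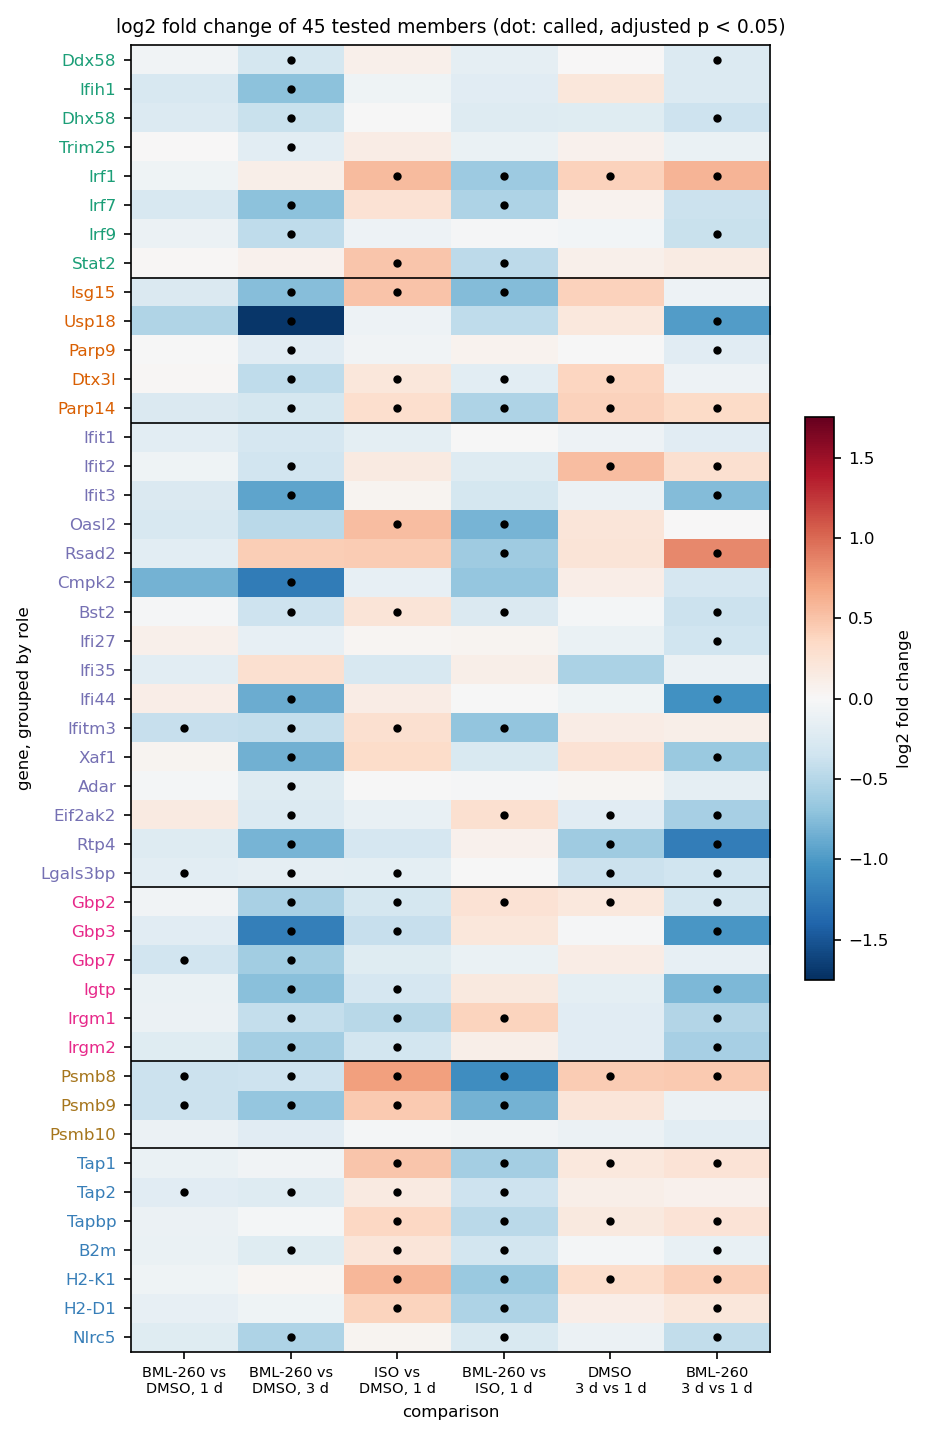
Log2 fold change of the 45 tested genes (rows, with the role group given by the colour of the name) in 6 comparisons (columns), on a scale from blue (lower) to red (higher); a dot marks an adjusted p under 0.05 in edgeR's quasi-likelihood test. With BML-260 at 3 days the column is mostly blue with 33 dots. With ISO the class I group at the bottom is red while the GTPases above the immunoproteasome are blue.

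The interferon-inducible GTPases, guanylate-binding proteins (Gbp) and immunity-related GTPases (Igtp, Irgm) that assemble on membranes around intracellular microbes, all fell with BML-260 at 3 days. Their median log2 fold change at 3 days was -0.60, and 5 or 6 of the 6 fell under every alternative tried. The 250 bases before the start of 5 of them and of the antiviral gene Ifit3 are printed, from the RefSeq promoter table of build GRCm38.p6, all on the plus strand. These 6 genes had the smallest p at 3 days among those holding a match to either motif named next. That each holds a match was therefore fixed by the choice. Where a gene has several windows, the one with most response elements is printed. Capitals mark matches to the interferon-stimulated response element, searched as GAAA, any 2 bases, GAAA, and to the gamma-activated sequence, searched as TTCNNNGAA, each on both strands. Gbp3 (chr3:142559794-142560043), Gbp2 (chr3:142620413-142620662), Gbp7 (chr3:142530086-142530335), Ifit3 (chr19:34583279-34583528), Igtp (chr11:58199306-58199555) and Irgm2 (chr11:58214727-58214976) read as follows.
Gbp3: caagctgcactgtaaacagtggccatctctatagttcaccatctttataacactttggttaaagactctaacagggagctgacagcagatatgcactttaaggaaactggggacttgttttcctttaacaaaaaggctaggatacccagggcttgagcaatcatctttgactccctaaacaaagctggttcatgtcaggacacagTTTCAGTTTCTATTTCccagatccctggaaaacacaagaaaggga
Gbp2: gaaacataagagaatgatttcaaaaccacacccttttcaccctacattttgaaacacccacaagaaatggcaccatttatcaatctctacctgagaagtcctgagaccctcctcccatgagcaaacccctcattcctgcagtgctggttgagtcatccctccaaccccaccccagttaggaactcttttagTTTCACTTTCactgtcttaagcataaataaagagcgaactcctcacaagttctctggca
Gbp7: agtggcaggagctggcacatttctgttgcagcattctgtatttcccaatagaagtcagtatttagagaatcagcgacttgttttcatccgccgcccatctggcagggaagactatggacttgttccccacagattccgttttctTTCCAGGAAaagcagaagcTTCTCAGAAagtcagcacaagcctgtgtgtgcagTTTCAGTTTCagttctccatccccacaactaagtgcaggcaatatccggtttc
Ifit3: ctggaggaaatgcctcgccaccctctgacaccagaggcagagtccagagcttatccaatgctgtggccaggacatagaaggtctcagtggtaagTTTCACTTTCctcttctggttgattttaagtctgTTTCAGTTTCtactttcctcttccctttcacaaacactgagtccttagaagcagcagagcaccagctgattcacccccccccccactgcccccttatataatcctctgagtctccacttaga
Igtp: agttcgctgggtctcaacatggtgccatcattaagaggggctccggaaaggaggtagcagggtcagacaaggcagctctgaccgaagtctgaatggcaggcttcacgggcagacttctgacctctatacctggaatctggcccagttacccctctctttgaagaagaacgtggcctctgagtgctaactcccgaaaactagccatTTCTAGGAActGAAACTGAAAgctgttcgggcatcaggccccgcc
Irgm2: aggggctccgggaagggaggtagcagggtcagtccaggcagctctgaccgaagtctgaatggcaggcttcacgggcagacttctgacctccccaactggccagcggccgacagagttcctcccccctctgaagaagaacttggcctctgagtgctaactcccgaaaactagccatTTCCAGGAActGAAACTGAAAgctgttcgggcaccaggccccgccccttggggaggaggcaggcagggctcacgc

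The starts used here are those of the RefSeq table, and GENCODE M21 places some of them elsewhere. Its starts of Gbp2 (142620602) and Gbp3 (142560026) lie within the printed windows, and the Irgm2 window lies inside its Irgm2 gene (58199618 to 58222782). Gbp3 holds 2 overlapping matches to the response element, beginning 45 and 39 bases before the start. Gbp2 and Gbp7 hold 1 each, 59 and 53 bases before it. Gbp7 adds 2 matches to the gamma-activated sequence at 106 and 87 bases. Ifit3 holds 2 response elements, at 156 and 122 bases. Igtp and Irgm2, neighbours on chromosome 11, share a run of 55 identical bases in these windows, and each holds 1 response element (34 and 64 bases before the start) and 1 gamma-activated sequence (45 and 75 bases). All 6 GTPases held the response element, as did 14 of the 38 genes present in the promoter table (36.8%), against 3.46% of all 27025 genes in it. The gamma-activated sequence was found in 8 of the 38 (21.1%), against 8.13% of all genes, and in 3 of the 6 GTPases. Among genes that fell at 3 days 10 of 26 held the response element (38.5%) and among those not called 3 of 11 (27.3%). These matches are descriptions of letters in a window and not evidence of binding. Cmpk2, Xaf1 and Irf7, which fell, held neither motif in this window, and Stat2 and Rsad2, which were not called, held a response element.

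Gbp3, on chromosome 3 (142560026 to 142573209 on GRCm38, by GENCODE M21), had the smallest p of the 45. At 1 day Gbp3 stood at 26.6 and 28.2 CPM in the DMSO libraries, 26.2 and 21.8 in those of BML-260 and 22.7 and 19.1 in those of ISO. Gbp3 at 3 days had 25.2 and 28.9 with DMSO and 10.8 and 12.7 with BML-260. It fell 2.30-fold at 3 days, with a log2 change of -1.20 (SE 0.109, adjusted p = 2.25e-09 by edgeR). The pair of libraries with BML-260 at 3 days was set apart below all other 8. The level of Gbp2 at 1 day was 38.4 and 37.2 CPM in the DMSO libraries, 38.1 and 34.4 in those of BML-260 and 30.03 and 30.9 in those of ISO. For Gbp2 at 3 days they were 41.5 and 44.1 with DMSO and 28.7 and 29.2 with BML-260. Gbp2 fell 1.48-fold at 3 days, with a log2 change of -0.56 (SE 0.0685, adjusted p = 3.35e-07 by edgeR), with the libraries of DMSO at 3 days the highest of the 10. For Gbp7 the 1-day values were 20.96 and 24.1 CPM in the DMSO libraries, 17.8 and 18.1 in those of BML-260 and 19.1 and 19.8 in those of ISO. After 3 days Gbp7 had 23.4 and 26.04 with DMSO and 15.7 and 16.7 with BML-260. Gbp7 fell 1.52-fold, with a log2 change of -0.61 (SE 0.0895, adjusted p = 6.57e-06 by edgeR), and its 2 libraries with BML-260 at 3 days were the lowest of all. Igtp had 14.96 and 15.4 CPM in the DMSO libraries at 1 day, 13.6 and 14.2 in those of BML-260 and 13.1 and 11.8 in those of ISO. Igtp at 3 days with DMSO had 12.4 and 14.6, and 8.12 and 8.10 with BML-260. Igtp fell 1.67-fold, with a log2 change of -0.74 (SE 0.114, adjusted p = 1.29e-05 by edgeR), again with no overlap with any other group. At 1 day Irgm2 stood at 20.6 and 22.01 CPM in the DMSO libraries, 18.8 and 18.1 in those of BML-260 and 18.1 and 16.2 in those of ISO. Irgm2 at 3 days had 17.5 and 19.8 with DMSO and 12.4 and 12.2 with BML-260. Irgm2 fell 1.51-fold, with a log2 change of -0.60 (SE 0.0979, adjusted p = 2.73e-05 by edgeR). Irgm1, the last of the group, fell by 0.42 on the log2 scale, a call lost without the first DMSO library (-0.38) or the second BML-260 library (-0.33). Exons of Igtp and Irgm2 overlap on the same strand in GENCODE M21, and guanylate-binding proteins are near-identical in places, so reads may be divided between such genes in a way that the sources used here do not describe.

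**Figure D2:**
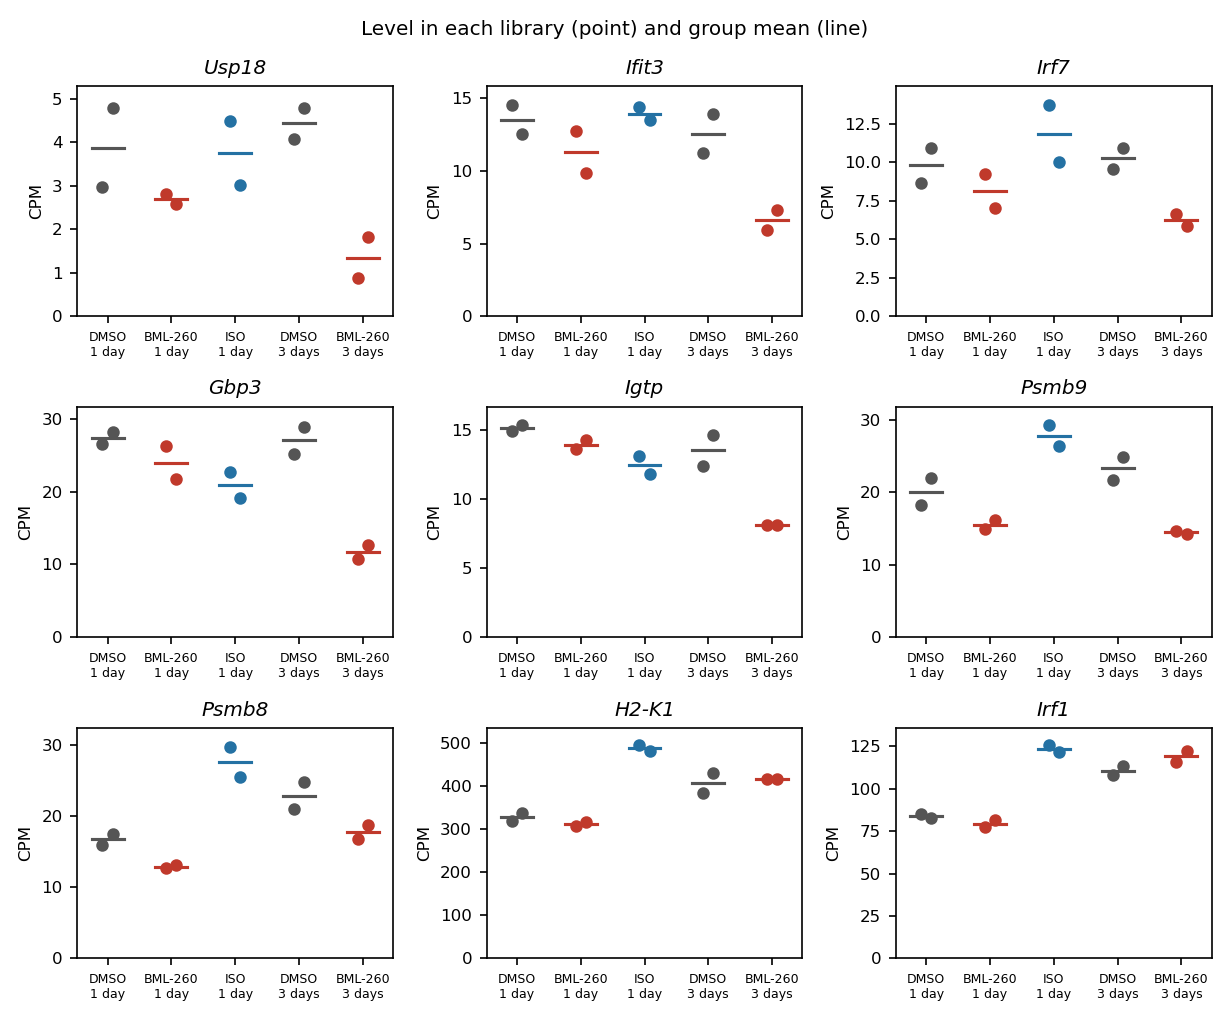
Level in CPM (vertical axis from 0) of 9 genes in each library (points) of the 5 groups, with the group mean as a line. For Usp18, Ifit3, Gbp3 and Igtp the 2 libraries with BML-260 at 3 days lie below all others, whereas for H2-K1 and Irf1 the ISO libraries and those at 3 days lie above DMSO at 1 day.

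Cytosolic sensors of double-stranded RNA fell with BML-260 at 3 days. The level of Ifih1 at 1 day was 16.5 and 17.2 CPM in the DMSO libraries, 13.8 and 14.1 in those of BML-260 and 17.4 and 14.8 in those of ISO. For Ifih1 at 3 days they were 19.1 and 19.6 with DMSO and 10.9 and 12.5 with BML-260. Ifih1, which senses long double-stranded RNA, fell 1.65-fold, with a log2 change of -0.72 (SE 0.101, adjusted p = 2.87e-06 by edgeR), and its libraries with BML-260 at 3 days were the lowest of the 10. Ddx58, the sensor of RNA with a triphosphate end, fell by 0.31, the related Dhx58 by 0.38 and Trim25, a ubiquitin ligase that acts on Ddx58, by 0.19 on the log2 scale. Dhx58 was not called without any one of the 4 libraries at 3 days (-0.34 to -0.43), and Trim25 was not called without the second DMSO library (-0.10) or the first BML-260 library (-0.13).

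Transcription factors of the response split. For Irf7 the 1-day values were 8.67 and 10.9 CPM in the DMSO libraries, 9.22 and 7.02 in those of BML-260 and 13.7 and 9.98 in those of ISO. After 3 days Irf7 had 9.56 and 10.9 with DMSO and 6.64 and 5.84 with BML-260. Irf7, an amplifier of type I interferon production, fell 1.65-fold, with a log2 change of -0.72 (SE 0.162, adjusted p = 0.00105 by edgeR), with no overlap between both groups at 3 days. Irf9 had 24.2 and 29.1 CPM in the DMSO libraries at 1 day, 24.9 and 24.6 in those of BML-260 and 25.96 and 24.5 in those of ISO. Irf9 at 3 days with DMSO had 24.4 and 27.1, and 17.8 and 19.9 with BML-260. Irf9, the DNA-binding partner of Stat2, fell 1.36-fold, with a log2 change of -0.44 (SE 0.0914, adjusted p = 0.000398 by edgeR), and again the libraries of BML-260 at 3 days were the lowest. Its partner did otherwise. At 1 day Stat2 stood at 39.7 and 41.5 CPM in the DMSO libraries, 44.4 and 38.3 in those of BML-260 and 55.2 and 58.5 in those of ISO. Stat2 at 3 days had 42.7 and 43.9 with DMSO and 46.01 and 44.8 with BML-260. Stat2 had a log2 change of 0.07 at 3 days (SE 0.0667, adjusted p = 0.448 by edgeR), and only the ISO libraries stood apart, above all others. The level of Irf1 at 1 day was 85.3 and 82.5 CPM in the DMSO libraries, 77.2 and 81.3 in those of BML-260 and 126 and 122 in those of ISO. For Irf1 at 3 days they were 108 and 113 with DMSO and 116 and 122 with BML-260. Irf1, a factor induced mainly by interferon gamma, had a log2 change of 0.11 (SE 0.0496, adjusted p = 0.0939 by edgeR) at 3 days, and its libraries of ISO and of either group at 3 days lay above those of DMSO and BML-260 at 1 day.

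In the ISG15 system, a ubiquitin-like tag with its enzymes, Usp18 showed the largest fall of the 45 genes. For Usp18 the 1-day values were 2.97 and 4.78 CPM in the DMSO libraries, 2.82 and 2.59 in those of BML-260 and 4.49 and 3.01 in those of ISO. After 3 days Usp18 had 4.07 and 4.80 with DMSO and 0.877 and 1.81 with BML-260. Usp18, the protease that removes ISG15 and restrains the interferon receptor, fell 3.24-fold, with a log2 change of -1.70 (SE 0.279, adjusted p = 2.76e-05 by edgeR), with both BML-260 libraries at 3 days below the other 8. Isg15 had 4.72 and 5.26 CPM in the DMSO libraries at 1 day, 4.94 and 3.48 in those of BML-260 and 9.21 and 5.25 in those of ISO. Isg15 at 3 days with DMSO had 6.05 and 7.12, and 4.06 and 3.77 with BML-260. Isg15 itself fell 1.68-fold, with a log2 change of -0.75 (SE 0.209, adjusted p = 0.00635 by edgeR), a call lost without the second DMSO library (-0.60) or the second BML-260 library (-0.70). At 1 day Dtx3l stood at 28.3 and 26.8 CPM in the DMSO libraries, 27.4 and 28.5 in those of BML-260 and 31.5 and 31.9 in those of ISO. Dtx3l at 3 days had 36.5 and 35.1 with DMSO and 25.2 and 27.4 with BML-260. Dtx3l, a ubiquitin ligase that pairs with Parp9, fell 1.36-fold, with a log2 change of -0.44 (SE 0.0708, adjusted p = 1.89e-05 by edgeR), and its highest libraries were those of DMSO at 3 days. Parp9 fell by 0.20 and Parp14, a mono-ADP-ribosyltransferase, by 0.31 on the log2 scale. Parp9 was not called without any one of the 4 libraries at 3 days (-0.14 to -0.22), and Parp14 was not called without the second DMSO library (-0.20) or the first BML-260 library (-0.30). Dtx3l and Parp9 lie head to head on chromosome 16 with overlapping first exons on opposite strands, and no source used here says whether the counting used strand.

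Antiviral effectors fell in 11 of 16 cases. The level of Ifit3 at 1 day was 14.5 and 12.5 CPM in the DMSO libraries, 12.8 and 9.87 in those of BML-260 and 14.4 and 13.5 in those of ISO. For Ifit3 at 3 days they were 11.2 and 13.9 with DMSO and 5.92 and 7.30 with BML-260. Ifit3, of the family that binds foreign RNA, fell 1.89-fold, with a log2 change of -0.92 (SE 0.143, adjusted p = 1.29e-05 by edgeR), without overlap with any other group. For Ifit2 the 1-day values were 15.4 and 13.2 CPM in the DMSO libraries, 14.8 and 12.5 in those of BML-260 and 15.7 and 16.04 in those of ISO. After 3 days Ifit2 had 21.1 and 20.4 with DMSO and 17.1 and 15.9 with BML-260. Its relative Ifit2 fell 1.26-fold, with a log2 change of -0.33 (SE 0.0954, adjusted p = 0.00801 by edgeR), a call lost without the first DMSO library (-0.28) or the second BML-260 library (-0.28), and Ifit1 had a log2 fold change of -0.29 without being called. Ifit2 was higher at 3 days than at 1 day with either treatment; with BML-260 that call was lost without the second library at 1 day (0.16) or the first at 3 days (0.23). Ifitm3 had 46.6 and 49.4 CPM in the DMSO libraries at 1 day, 37.4 and 35.4 in those of BML-260 and 62.2 and 54.96 in those of ISO. Ifitm3 at 3 days with DMSO had 47.5 and 57.1, and 38.7 and 39.4 with BML-260. Ifitm3, which blocks virus entry at membranes, fell 1.34-fold, with a log2 change of -0.42 (SE 0.0756, adjusted p = 8.01e-05 by edgeR), and at both times its BML-260 libraries lay below those of DMSO. At 1 day Eif2ak2 stood at 62.9 and 60.03 CPM in the DMSO libraries, 73.7 and 63.2 in those of BML-260 and 55.1 and 56.97 in those of ISO. Eif2ak2 at 3 days had 53.2 and 54.4 with DMSO and 48.97 and 42.2 with BML-260. Eif2ak2, the kinase that stops translation on double-stranded RNA, fell 1.18-fold, with a log2 change of -0.24 (SE 0.0714, adjusted p = 0.00973 by edgeR), a call lost without the first DMSO library (-0.23), the second DMSO library (-0.20) or the second BML-260 library (-0.14). The level of Lgals3bp at 1 day was 303 and 320.2 CPM in the DMSO libraries, 273 and 276 in those of BML-260 and 300.00 and 252 in those of ISO. For Lgals3bp at 3 days they were 236 and 245 with DMSO and 230.1 and 199.8 with BML-260. Lgals3bp, a secreted glycoprotein, fell 1.12-fold, with a log2 change of -0.16 (SE 0.0636, adjusted p = 0.0481 by edgeR), a call lost without the first DMSO library (-0.16), the second DMSO library (-0.10) or the second BML-260 library (-0.06). Its fall was the smallest of the 33 in size.

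Other effectors fell as follows. On the log2 scale Cmpk2, a mitochondrial nucleotide kinase, fell by 1.23, Ifi44 by 0.87, Xaf1, a pro-apoptotic factor, by 0.84, and Rtp4 by 0.82. Only the call of Xaf1 held without each library in turn: Cmpk2 was not called without the second DMSO library (-0.99) or the first BML-260 library (-0.96), Ifi44 without the second DMSO library (-0.57) or the first BML-260 library (-0.59) and Rtp4 without the second DMSO library (-0.55). Bst2, which tethers budding virus to the membrane, fell by 0.36, a call lost without the second DMSO library (-0.20), and Adar, an editor of double-stranded RNA, by 0.22 (not called without any one of the 4 libraries, -0.15 to -0.25). Values of the other 4 that were not called were -0.47 for Oasl2, -0.15 for Ifi27, 0.28 for Ifi35 and 0.43 for Rsad2, the only effectors with a positive value being the last 2.

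Among the 3 immunoproteasome subunits, which cut proteins into peptides, Psmb9 and Psmb8 fell at 3 days and Psmb10 was not called. For Psmb9 the 1-day values were 18.2 and 21.9 CPM in the DMSO libraries, 14.9 and 16.1 in those of BML-260 and 29.2 and 26.3 in those of ISO. After 3 days Psmb9 had 21.6 and 24.9 with DMSO and 14.7 and 14.3 with BML-260. Psmb9, an immunoproteasome subunit, fell 1.60-fold at 3 days, with a log2 change of -0.68 (SE 0.1, adjusted p = 5.9e-06 by edgeR). Psmb8 had 15.9 and 17.5 CPM in the DMSO libraries at 1 day, 12.6 and 13.1 in those of BML-260 and 29.7 and 25.4 in those of ISO. Psmb8 at 3 days with DMSO had 20.9 and 24.8, and 16.8 and 18.7 with BML-260. Psmb8, another of these subunits, fell 1.28-fold, with a log2 change of -0.36 (SE 0.098, adjusted p = 0.00506 by edgeR), a call lost without the second DMSO library (-0.21) or the first BML-260 library (-0.29). At 1 day Psmb10 stood at 21.7 and 25.02 CPM in the DMSO libraries, 19.98 and 23.4 in those of BML-260 and 24.6 and 21.1 in those of ISO. Psmb10 at 3 days had 21.2 and 22.4 with DMSO and 19.96 and 18.2 with BML-260. Psmb10, the remaining subunit, had a log2 change of -0.19 (SE 0.0977, adjusted p = 0.124 by edgeR), with both BML-260 libraries at 3 days below those of DMSO. Psmb8 and Psmb9 were highest in the ISO libraries, whereas Psmb10 overlapped between most groups.

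Tap1, Tapbp and the class I heavy chains H2-K1 and H2-D1 were not called at 3 days, while Tap2, B2m and Nlrc5 fell. The level of Tap1 at 1 day was 68.6 and 68.6 CPM in the DMSO libraries, 63.05 and 64.03 in those of BML-260 and 97.4 and 95.5 in those of ISO. For Tap1 at 3 days they were 74.04 and 82.4 with DMSO and 73.7 and 76.7 with BML-260. Tap1, a subunit of the peptide transporter, had a log2 change of -0.06 at 3 days (SE 0.0545, adjusted p = 0.46 by edgeR), and Tapbp, the tapasin that couples it to class I, had -0.03. Tap2, the other subunit, fell by 0.23, a call lost without the second DMSO library (-0.17) or the second BML-260 library (-0.19). For H2-K1 the 1-day values were 318 and 338 CPM in the DMSO libraries, 308 and 316 in those of BML-260 and 495 and 482 in those of ISO. After 3 days H2-K1 had 384 and 429.5 with DMSO and 417 and 416 with BML-260. H2-K1 had a log2 change of 0.03 (SE 0.0487, adjusted p = 0.637 by edgeR), and both groups at 3 days lay above DMSO at 1 day. H2-D1 had 89.9 and 99.97 CPM in the DMSO libraries at 1 day, 81.97 and 89.2 in those of BML-260 and 127 and 122 in those of ISO. H2-D1 at 3 days with DMSO had 97.3 and 109, and 93.2 and 103 with BML-260. H2-D1, the second heavy chain, had -0.07 (SE 0.0618, edgeR adjusted p = 0.414). Both heavy chains belong to a family of near-identical genes, so their counts may include reads of relatives. At 1 day B2m stood at 306 and 319.7 CPM in the DMSO libraries, 281 and 297 in those of BML-260 and 366 and 359 in those of ISO. B2m at 3 days had 295 and 316 with DMSO and 258 and 271 with BML-260. B2m, their common light chain, fell 1.155-fold, with a log2 change of -0.21 (SE 0.0473, adjusted p = 0.00114 by edgeR), a call lost without the second DMSO library (-0.13). The level of Nlrc5 at 1 day was 20.03 and 20.7 CPM in the DMSO libraries, 18.5 and 16.7 in those of BML-260 and 20.8 and 21.5 in those of ISO. For Nlrc5 at 3 days they were 17.9 and 20.1 with DMSO and 13.2 and 12.9 with BML-260. Nlrc5, the transactivator of class I genes, fell 1.46-fold, with a log2 change of -0.54 (SE 0.0945, adjusted p = 5.94e-05 by edgeR), with its libraries of BML-260 at 3 days the lowest. Tap1, Psmb8, Psmb9, Tap2, Tapbp, H2-K1, H2-D1 and Eif2ak2 are the 8 genes on chromosome 17, and Psmb9 and Tap1 overlap at their first exons on opposite strands.

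Each immunoproteasome subunit takes the place of a constitutive one in the protein complex, and the ratio of their messenger RNAs was taken within each library. Protein was not measured, so these ratios do not show exchange of subunits. The percents also depend on annotated exon lengths (3381 bases for Psmb8, 899 for Psmb5), so their levels are not compared between pairs. As CPM per kilobase, Psmb8 came to 3.88% and 4.21% of Psmb5 with DMSO at 1 day, 2.36% and 2.39% with BML-260, 7.08% and 6.21% with ISO, 6.02% and 7.08% with DMSO at 3 days and 3.54% and 3.75% with BML-260 at 3 days. Psmb9 stood at 3.99% and 4.91% of Psmb6 with DMSO at 1 day and 3.15% ± 0.20 (SD, n = 2) with BML-260, then 6.42% and 6.04% with ISO, 5.61% and 6.23% with DMSO at 3 days, and 3.18% and 3.12% with BML-260 at 3 days. Psmb10 stood at 16.9% and 20.7% of Psmb7, 13.5% and 15.3%, 21.3% ± 1.8 (SD, n = 2), 21.4% and 22.7%, and 17.2% and 15.9% in the same order. For each of the 3 pairs both BML-260 libraries lay below both DMSO libraries at either time; these ratios were not tested. The constitutive subunits moved the other way: with BML-260 Psmb5 rose by 0.39 at 1 day and 0.48 at 3 days, Psmb6 by 0.13 and 0.23, and Psmb7 by 0.27 and 0.22 on the log2 scale. Of the activator subunits, Psme1 fell by 0.16 at 3 days and Psme2 had 0.11 without being called.

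**Figure D3:**
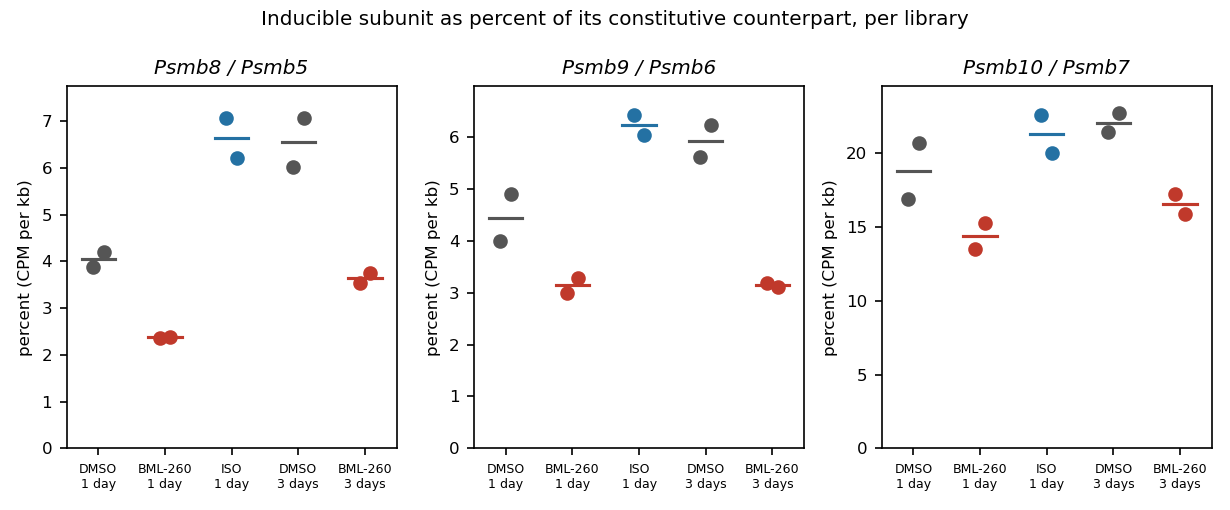
Level of each inducible proteasome subunit as a percent of its constitutive counterpart (vertical axes from 0, CPM per kilobase of exon) in every library (points) of the 5 groups, with group means as lines. Psmb8 relative to Psmb5 averaged 4.05% with DMSO and 2.37% with BML-260 at 1 day, and 6.55% and 3.64% at 3 days.

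At 1 day the effect of BML-260 was smaller. Of the 45 genes 6 fell and none rose, against 8.62% of all genes called lower and 9.32% called higher, so that the count was not far from that background. The 6 were Ifitm3, Gbp7, Psmb9, Psmb8, Tap2 and Lgals3bp, and each of them also fell at 3 days, a comparison with no library in common. The median log2 fold change at 1 day was -0.15, against -0.00101 over all genes tested. Negative values were found in 84.4% of the 45 at 1 day, against 50.1% of all genes. At both times 34 of 45 were negative, for which the share of all genes was not taken. Ifitm3 fell 1.32-fold, with a log2 change of -0.40 (SE 0.0787, adjusted p = 0.000597 by edgeR), the only one of the 6 calls kept in each alternative. Gbp7 fell 1.26-fold, with a log2 change of -0.33 (SE 0.0912, adjusted p = 0.0118 by edgeR), Psmb9 1.29-fold, with a log2 change of -0.37 (SE 0.103, adjusted p = 0.0121 by edgeR), and Psmb8 1.30-fold, with a log2 change of -0.38 (SE 0.111, adjusted p = 0.0181 by edgeR). Leaving out 1 library ended these calls: Gbp7 without the second DMSO library (-0.23), the first BML-260 library (-0.32) or the second BML-260 library (-0.34), Psmb9 without the second DMSO library (-0.23) or the first BML-260 library (-0.32), Psmb8 without the second DMSO library (-0.31), the first BML-260 library (-0.35) or the second BML-260 library (-0.40), Tap2 without the second DMSO library (-0.16) or the first BML-260 library (-0.14) and Lgals3bp without the first DMSO library (-0.22), the second DMSO library (-0.14), the first BML-260 library (-0.17) or the second BML-260 library (-0.18). Each of the 7 genes of the class I group had both BML-260 libraries below both of DMSO, with values from -0.22 to -0.07. Only Tap2 was called, and the share of all genes so separated was not taken. The median of the 45 was -0.155 without the first DMSO library and -0.10 without the second. It was -0.18 without the first BML-260 library and -0.09 without the second. DESeq2 called 2 lower and none higher, against 5.34% and 6.74% of all genes.

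The effect at 3 days exceeded that at 1 day in a test of the difference itself for 7 genes. All 7 were lower at 3 days than the effect at 1 day would give, against 4.51% of all genes called lower and 3.93% called higher in that test, and the median difference was -0.24 (-0.02 over all genes). Gbp3 differed by -1.0 on the log2 scale (SE 0.148, edgeR adjusted p = 0.000124), from -0.20 at 1 day to -1.20 at 3 days. Gbp2 differed by -0.50 (SE 0.0971, edgeR adjusted p = 0.0019) and Dtx3l by -0.47 (SE 0.103, edgeR adjusted p = 0.00501); at 1 day both had values near 0. The other 4 were Xaf1 at -0.90, Ifit3 at -0.66, Igtp at -0.62 and Eif2ak2 at -0.39. Leaving out 1 library ended these calls: Xaf1 without the first DMSO library at 1 day (-0.83), the first BML-260 library at 1 day (-0.65), the second DMSO library at 3 days (-0.70) or the second BML-260 library at 3 days (-0.71), Ifit3 without the second DMSO library at 1 day (-0.55), the first BML-260 library at 1 day (-0.47), the second DMSO library at 3 days (-0.47) or the first BML-260 library at 3 days (-0.52), Igtp without the second DMSO library at 3 days (-0.47) and Eif2ak2 without the second DMSO library at 1 day (-0.36), the first BML-260 library at 1 day (-0.28), the first DMSO library at 3 days (-0.38), the second DMSO library at 3 days (-0.35) or the second BML-260 library at 3 days (-0.29). For Usp18 the difference of -1.17 missed the threshold (edgeR adjusted p = 0.06). The calls of Gbp3, Gbp2 and Dtx3l held in each alternative, while 4 of 7 remained without the first BML-260 library at 1 day and 3 without the second DMSO library at 3 days.

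ISO moved the groups of genes in opposite directions. Against DMSO at 1 day, 16 of the 45 genes rose and 6 fell, against 21.4% of all genes called higher and 20.3% called lower, and the median was 0.09 (-0.00359 over all genes). Of the 7 genes of the class I group 6 rose, with a group median of 0.37, and 2 of 3 immunoproteasome subunits rose. In contrast 5 of 6 GTPases fell, with a group median of -0.31, and none rose. With upper-quartile scaling 12 rose and 8 fell, and over all genes the split went from 3253 higher and 3086 lower to 2588 and 3831. H2-K1 rose 1.49-fold, with a log2 change of 0.57 (SE 0.0491, adjusted p = 5.03e-10 by edgeR), and Irf1 1.47-fold, with a log2 change of 0.56 (SE 0.0512, adjusted p = 1.87e-09 by edgeR). Tap1 rose 1.40-fold, with a log2 change of 0.49 (SE 0.0546, adjusted p = 5.31e-08 by edgeR), Tapbp 1.29-fold, with a log2 change of 0.37 (SE 0.0446, adjusted p = 2.32e-07 by edgeR), and Psmb8 1.64-fold, with a log2 change of 0.71 (SE 0.0981, adjusted p = 1.6e-06 by edgeR). In each of these 5 genes both ISO libraries lay above both of DMSO.

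Further genes that rose with ISO were Stat2 by 0.49, Psmb9 by 0.46, H2-D1 by 0.39, Ifitm3 by 0.28 and B2m by 0.21 on the log2 scale. Isg15 rose by 0.50, but 1 ISO library (5.25 CPM) lay below a DMSO library (5.26 CPM). Oasl2, Parp14, Bst2, Dtx3l and Tap2 were also called higher. Among the higher calls leaving out 1 library ended the following: Isg15 without the first DMSO library (0.43), the second DMSO library (0.59) or the first ISO library (0.07), Oasl2 without the first DMSO library (0.35) or the first ISO library (0.44), Parp14 without the first DMSO library (0.26) or the first ISO library (0.26), Bst2 without the first DMSO library (0.10) or the first ISO library (0.10), Dtx3l without the second DMSO library (0.16), the first ISO library (0.21) or the second ISO library (0.20), Tap2 without the first DMSO library (0.12), the second DMSO library (0.20) or the first ISO library (0.06) and Ifitm3 without the first ISO library (0.19). Among the GTPases Irgm1 fell by 0.49, Gbp3 by 0.40, Irgm2 by 0.32, Gbp2 by 0.31 and Igtp by 0.29, and Gbp7 had -0.21 (edgeR adjusted p = 0.0598). All 6 had both ISO libraries below both of DMSO, a count without a share of all genes beside it. Leaving out 1 library ended these calls: Irgm1 without the second ISO library (-0.32), Gbp3 without the second ISO library (-0.27), Irgm2 without the second DMSO library (-0.27) or the second ISO library (-0.23), Igtp without the first DMSO library (-0.31), the second DMSO library (-0.27) or the second ISO library (-0.21) and Lgals3bp without the second DMSO library (-0.14) or the second ISO library (-0.05). The second ISO library lay above the first in only 10 of the 45 genes. Against 0.09 with all libraries, the median of the 45 was 0.16 without the second ISO library and 0.02 without the first. Without either DMSO library at 1 day it was 0.10. DESeq2 called 10 higher and 4 lower, against 17% and 13.9% of all genes. The calls of Irf1, Stat2, Gbp2, Psmb8, Psmb9, Tap1, Tapbp, B2m, H2-K1 and H2-D1 were kept in each alternative that used DMSO at 1 day.

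**Figure D4:**
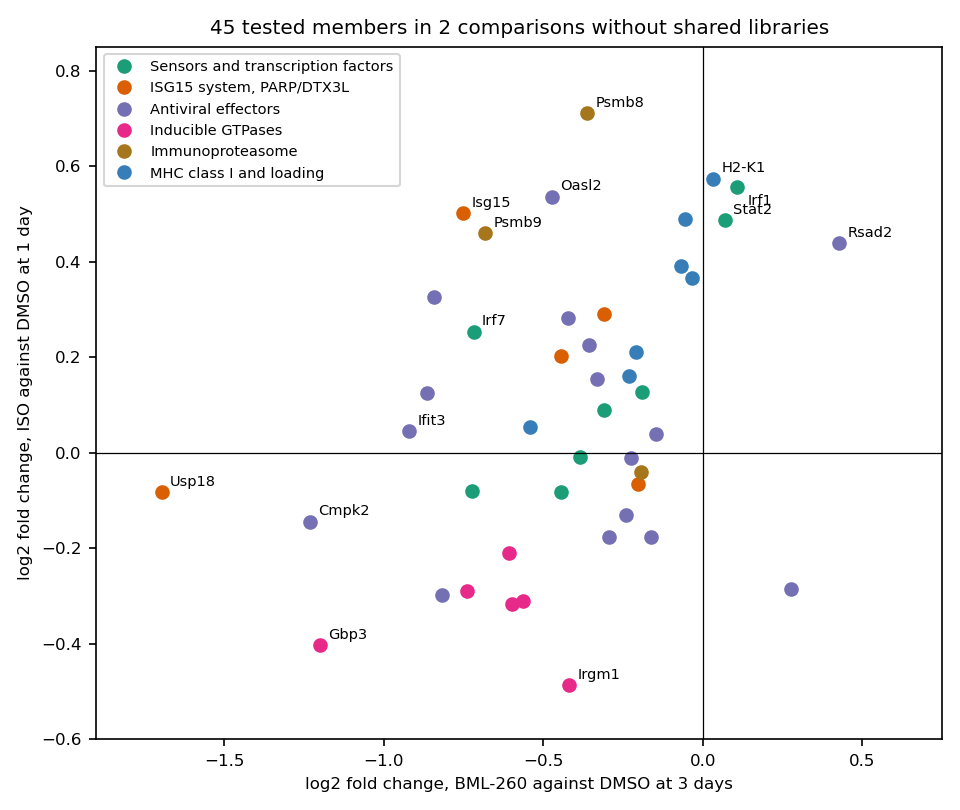
Log2 fold change of the 45 tested genes with BML-260 against DMSO at 3 days (horizontal) and with ISO against DMSO at 1 day (vertical), comparisons without a library in common, coloured by role. The GTPases lie below 0 on both axes, Psmb8, Psmb9 and Isg15 lie to the left and high, and the heavy chain H2-K1 is near 0 on the horizontal axis and at 0.57 on the vertical.

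Set beside each other, BML-260 at 3 days and ISO at 1 day both gave lower calls for the GTPases Gbp2, Gbp3, Igtp, Irgm1 and Irgm2 and for Lgals3bp, and 9 genes fell with the one and rose with the other: Psmb8, Psmb9, Isg15, Ifitm3, Parp14, Dtx3l, Bst2, Tap2 and B2m. Of all genes tested 7.82% were lower in both (13.3% of the 45), and 2.31% were lower with BML-260 and higher with ISO. Of the 9, only Psmb9 kept both calls without each library in turn, with the values of the others given above. The direct comparison of BML-260 with ISO at 1 day gave 19 lower and 3 higher of the 45, against 22.8% of all genes called lower and 21.6% called higher. All 7 genes of the class I group were lower with BML-260 than with ISO. Among them the call of Nlrc5 (-0.27) was lost without the second BML-260 library (-0.19) or the second ISO library (-0.24). H2-K1 was 1.56-fold lower, with a log2 change of -0.65 (SE 0.0492, adjusted p = 4.06e-11 by edgeR), Irf1 1.56-fold, with a log2 change of -0.64 (SE 0.0515, adjusted p = 1.12e-10 by edgeR), Tap1 1.52-fold, with a log2 change of -0.60 (SE 0.0551, adjusted p = 1.26e-09 by edgeR), and Psmb8 2.13-fold, with a log2 change of -1.09 (SE 0.102, adjusted p = 2.06e-09 by edgeR). The 3 higher genes were Irgm1 (0.38), Eif2ak2 (0.28) and Gbp2 (0.25), and none of them was called higher without the first BML-260 library. This comparison shares its ISO libraries with that of ISO against DMSO, which in turn shares the DMSO libraries of BML-260 at 1 day, so these are not independent of each other.

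**Figure D5:**
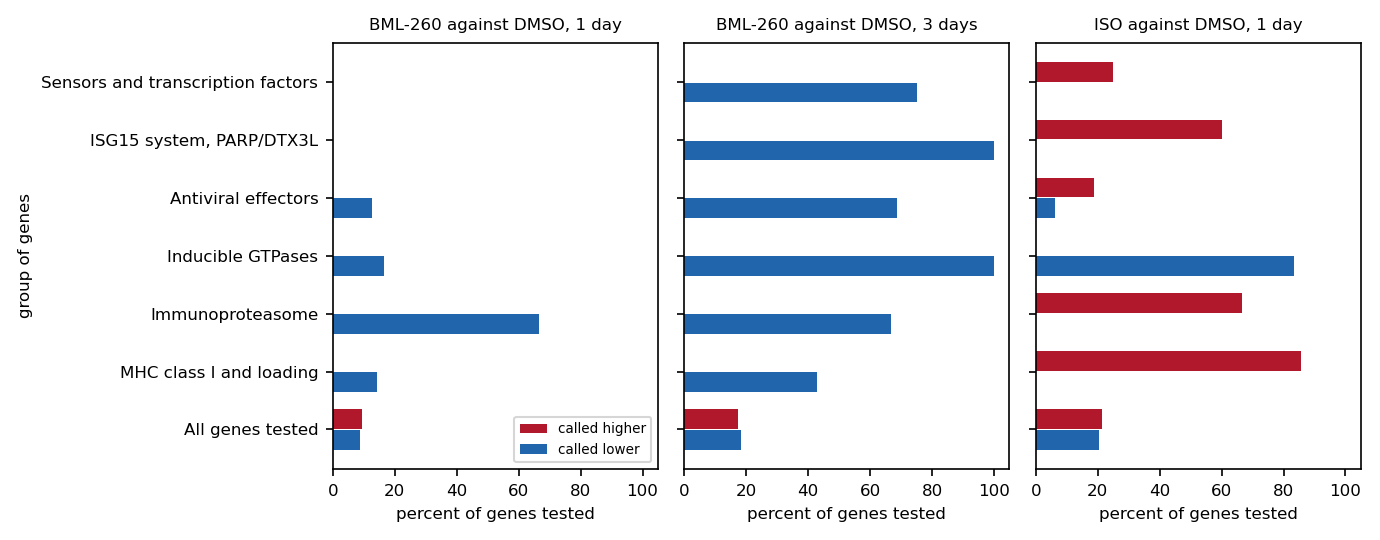
Percent of tested genes called higher (red) and lower (blue) in each role group and among all genes tested (bottom), in 3 comparisons; horizontal axes start at 0 and groups hold 3 to 16 genes. At 3 days of BML-260 every group shows only lower calls, and with ISO the GTPases are the group with lower calls and no higher ones.

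Libraries of the same treatment were also compared between 3 days and 1 day. In DMSO, 3 days against 1 day, 9 of the 45 genes rose and 3 fell, near the 18.1% of all genes called higher and below the 16.8% called lower. Irf1 rose 1.32-fold, with a log2 change of 0.40 (SE 0.0515, adjusted p = 8.41e-07 by edgeR), and H2-K1 1.24-fold, with a log2 change of 0.31 (SE 0.0492, adjusted p = 1.62e-05 by edgeR), while Lgals3bp fell 1.30-fold, with a log2 change of -0.37 (SE 0.0628, adjusted p = 3.63e-05 by edgeR). Ifit2 rose 1.45-fold, with a log2 change of 0.54 (SE 0.0988, adjusted p = 0.000111 by edgeR). Dtx3l, Parp14, Gbp2, Psmb8, Tap1 and Tapbp also rose, and Eif2ak2 and Rtp4 fell. Without the second DMSO library at 3 days 4 rose and 4 fell, and leaving out 1 library ended the calls of Parp14 without the second DMSO library at 3 days (0.30), Gbp2 without the first DMSO library at 1 day (0.20), the second DMSO library at 1 day (0.15), the first DMSO library at 3 days (0.21) or the second DMSO library at 3 days (0.12), Psmb8 without the second DMSO library at 3 days (0.31), Tap1 without the second DMSO library at 3 days (0.10), Tapbp without the first DMSO library at 1 day (0.13) or the second DMSO library at 3 days (0.14), Eif2ak2 without the first DMSO library at 1 day (-0.16), the second DMSO library at 1 day (-0.23), the first DMSO library at 3 days (-0.19) or the second DMSO library at 3 days (-0.22) and Rtp4 without the first DMSO library at 3 days (-0.42). With BML-260, 3 days against 1 day, 9 rose and 20 fell, against 22.9% of all genes called higher and 23.4% called lower. Irf1 rose, with a log2 change of 0.59 (SE 0.0516, adjusted p = 6.03e-10 by edgeR), and H2-K1 1.33-fold, with a log2 change of 0.42 (SE 0.0493, adjusted p = 1.13e-07 by edgeR), whereas Gbp3 fell 2.03-fold, with a log2 change of -1.02 (SE 0.112, adjusted p = 3.15e-08 by edgeR), as did Eif2ak2, with a log2 change of -0.59 (SE 0.0701, adjusted p = 1.3e-07 by edgeR). Over time with BML-260 the class I group gave 4 rises and 2 falls, and the GTPases 5 falls of 6. The rise of H2-D1 was not called without the first BML-260 library at 1 day (0.14) or the second at 3 days (0.12), nor the fall of B2m without the second at 1 day (-0.09) or the first at 3 days (-0.09). Taking DMSO at 3 days in place of 1 day as the control of ISO gave 10 higher and 5 lower, 11 of the 22 calls among them.

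Upstream of these genes, 15 of 20 symbols for interferons and related cytokines have no row in the table used here. Of the 2 tested, the interferon Ifnz and the cytokine Il6, neither was called in any comparison with DMSO. The counts that follow stand against the shares of all genes called higher and lower, 9.32% and 8.62% with BML-260 at 1 day, 17.3% and 18.3% at 3 days, and 21.4% and 20.3% with ISO. Of 16 genes for receptors, Janus kinases, STATs and their inhibitors 2 rose and 4 fell with BML-260 at 1 day, 2 rose and 6 fell at 3 days, and 8 rose and 3 fell with ISO. Ifngr1, a chain of the interferon gamma receptor, fell by 0.20 with BML-260 at 1 day, 0.56 at 3 days and 0.35 with ISO on the log2 scale. The type I receptor chains Ifnar1 and Ifnar2 and the kinases Jak1 and Tyk2 were not called with BML-260 at either time, with values between -0.03 and 0.17; with ISO Jak1 rose by 0.48, Tyk2 by 0.22, Ifnar2 by 0.18 and Ifnar1 by 0.17.

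Genes for nucleic acid sensing and interferon induction were more often called lower than higher at 3 days. Of 18 tested 1 rose and 10 fell with BML-260 at 3 days, with a median of -0.25, against 17.3% and 18.3% of all genes. Tlr3, the endosomal sensor of double-stranded RNA, fell by 1.39, Zbp1, a sensor of Z-form nucleic acid, by 1.37, and Tlr4, the receptor for lipopolysaccharide, by 0.89 on the log2 scale. Irf3, the factor that starts type I interferon production, had -0.07 and was not called. A further 46 tested interferon-stimulated genes outside the set gave 4 higher and 19 lower at 3 days with a median of -0.31, 1 higher and 7 lower at 1 day, and 9 higher and 4 lower with ISO. The ISO count of higher calls is near the 21.4% of all genes. Slfn9 fell by 0.73 and Gbp10 by 0.71 at 3 days, while Zc3hav1, an antiviral RNA-binding protein, rose by 0.40. Cxcl10, a chemokine that draws T cells, rose by 0.94 with ISO. Class I-like genes gave 2 higher, near the 17.3% of all genes, and 5 lower of 13 at 3 days (18.3% of all genes). Their values ran from -0.79 to 2.05. The lower calls were led by Mr1 (-0.75) and Cd1d1 (-0.79), which present metabolites and lipids. With ISO 4 were higher, led by H2-Q4 (1.08), against 21.4% of all genes, and none lower.

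In the authors' deposited table of genes past their threshold for BML-260 against DMSO at 3 days, 21 of the 46 genes are listed, all with a negative log2 fold change, while 42.3% of all genes listed there are negative. The authors' deposited table gives -1.03 for Gbp3 and -0.83 for Usp18 on the log2 scale. They come from the authors' own fit and not from edgeR, so their sizes are not like for like with the values above. At 1 day the authors' deposited table lists Ifitm3 and Lgals3bp of the 46, both negative, in a list of which 47.9% is negative.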

How the data were processed

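RNA of brown adipocytes was sequenced in 10 libraries. The authors deposited whole-number counts per gene for every library, and these were used as deposited. The submitters' processing notes name TopHat2 2.1.1, DESeq2, bedtools and bcl2fastq 2.17.1.14, and list builds mm9 and mm10 with no role. For the annotation, the counting rule and strand, nothing is stated in the labels or headers. The authors also deposited lists of genes past their threshold with log2 fold changes and adjusted p-values, from which only listed membership and values are quoted.

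Counts were tested with edgeR 4.0.16 (R 4.3.3, quasi-likelihood F test, TMM scaling, filterByExpr at count 10 and total 15). The fit held 1 mean per group and left 5 residual degrees of freedom. P-values were adjusted over the 15212 tested genes by Benjamini-Hochberg, and a gene is called at an adjusted p under 0.05. Standard errors were derived from F (size of the log2 value over the root of F). The code was tested on simulated data.

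The 46 genes, the gene lists and the tests were chosen with earlier results of these data known. Named with a value in every library are the 12 genes of smallest p for BML-260 at 3 days, the 4 of smallest p in each other comparison and a fixed set of pathway genes; genes of other lists are named by up to 3 smallest p, and a gene of these lists is not reported here. Alternatives were DESeq2 1.42.0, its size factors, upper-quartile scaling, no filter, only the groups compared, a replicate block, leaving out each library and, for ISO, DMSO at 3 days as control. Gene positions are from GENCODE M21 (GRCm38), matched by symbol.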

Additional observations from a re-analysis of the deposited data

Results flagged for a closer look

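For 7 of the 45 tested genes the effect of BML-260 at 3 days differed from that at 1 day in a test of the difference itself. Of all genes tested, 4.51% were called lower and 3.93% higher in that test. On the log2 scale, 3 days minus 1 day, Gbp3 by -1.0 (SE 0.148, edgeR adjusted p = 0.000124), Gbp2 by -0.50 (SE 0.0971, edgeR adjusted p = 0.0019), Dtx3l by -0.47 (SE 0.103, edgeR adjusted p = 0.00501) differed most firmly. The others were Eif2ak2 by -0.39 (SE 0.0987, edgeR adjusted p = 0.0124), Igtp by -0.62 (SE 0.156, edgeR adjusted p = 0.0129), Xaf1 by -0.90 (SE 0.235, edgeR adjusted p = 0.0171) and Ifit3 by -0.66 (SE 0.195, edgeR adjusted p = 0.0344). All 7 differences were negative. Only the calls of Gbp3, Gbp2 and Dtx3l were kept in each alternative. Those of Eif2ak2, Igtp, Xaf1 and Ifit3 were each lost without at least 1 library.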

How the results depend on the processing

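Leaving out 1 library at a time gave 1 to 7 called genes for BML-260 at 1 day, 19 to 28 at 3 days, 3 to 9 for the difference between times, 15 to 19 for ISO, 17 to 23 for BML-260 against ISO, 8 to 11 for DMSO over time and 24 to 28 for BML-260 over time, against 6, 33, 7, 22, 22, 12 and 29 as reported. An arm left with 1 library is assumed to vary like the other groups. DESeq2 called 2 genes for BML-260 at 1 day, 24 at 3 days and 14 for ISO. It gave no adjusted p for some genes of low count, which were left out. With DMSO at 3 days as the control of ISO, 9 genes changed sign, among them those called with either control: Dtx3l (-0.17), Parp14 (-0.11), Ifit2 (-0.38) and Lgals3bp (0.20). That contrast adds the difference in time. Deviations of same-numbered libraries correlated at -0.0434 to 0.0742, so the numbers were not shown to pair libraries, and with the replicate block 6, 34, 9, 23, 23, 12 and 29 genes were called in the order above. Genes under about 20 counts per library, such as Cmpk2, are limited by depth.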
